A study of Saccharomyces cerevisiae with 94 samples.

Results

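The mRNAs described here encode the nuclear subunits of the mitochondrial respiratory complexes of budding yeast. They are 13 genes of ATP synthase, 8 of cytochrome c oxidase (complex IV), 9 of the cytochrome bc1 complex (complex III), 4 of succinate dehydrogenase (complex II), and CYC1, the gene of cytochrome c. Members were taken by name from the transcripts classed as mRNA in the deposited tables, and 34 of the 35 listed genes were found among 5878 mRNA records. COX4 was the exception, since its reads are filed in a joint record with YGL188C and a cryptic unstable transcript, and this record stands outside the mRNA class. Of the 34 members, 30 had a record of their own, whereas ATP2, ATP14, COX6 and QCR9 shared a record with the neighbouring open reading frames YJR120W, YLR294C, YHR050W-A and YGR182C, so that their reads cannot be split between both. Reads of COX5A, SDH1, SDH3, SDH4 and CYC1 could be confused with those of their paralogs COX5B, YJL045W, SHH3, SHH4 and CYC7.

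All samples are labelled as W303, grown in YPDA, and their RNA was sequenced directly on Nanopore, so that each read is 1 RNA molecule with its pA-tail. The Mex67-AA strain, in which rapamycin tethers the mRNA export receptor Mex67 away from the nucleus, was followed at 25 °C for 0 to 30 min after rapamycin in replicates A, B and C. Wild-type (WT) cells were followed for 0 to 20 min after a shift from 25 °C to 37 °C in replicates A, B and D, and for 0 to 60 min at 25 °C in thiolutin, an inhibitor of RNA polymerases, in replicate A only. The study calls its chase replicates biological. The other conditions had 1 pooled column or 1 library each. Dcp2-AID and Xrn1-AID cells with the auxin 1-NAA for 2 h were set against WT cells with 1-NAA for 2 h, and Pab1-AID cells with auxin for 1 h or 2 h against Pab1-AID cells without auxin, whose title reads WT. The ccr4Δ and pan2Δ strains were set against WT, all labelled 25 °C, although the WT title names 30. Their column names and the study's list of reads give 30 °C. That list also gives 30 °C for the pop2Δ and WT RNA libraries. The pan2Δ description names ccr4Δ, but its PAN2 reads were 2, against 176 in WT. The pop2Δ library and a WT RNA digested in the tube with the exonuclease Xrn1 were both set against the same WT RNA without digestion. In the study, heated Mex67-AA cells were given rapamycin shortly before the heat, so that the heat was shorter than the rapamycin treatment. Mex67-AA cells with rapamycin at 37 °C, whose title names 16 min, were set against a pool labelled 25 °C, control without rapamycin. That label was at odds with the heat shock mRNAs of the pool, since HSP104 had 204 reads per 1000000 (RPM) with rapamycin at 37 °C, against 2657 in the pool labelled control, while the Mex67-AA pool at 0 min of the 25 °C chase had 65.1. The comparison was therefore also made against this pool at 0 min.

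The strains differ in more than the target. In the study's strain list, Mex67-AA carries tor1-1, a disrupted FPR1, RPL13 fused to FKBP12 and MEX67 fused to FRB. A Pab1-AID strain is listed with these alleles and the OsTIR1 ligase, the Xrn1-AID strain with all but the MEX67 fusion, and Dcp2-AID with OsTIR1 alone or with all of them. For ccr4Δ and pan2Δ the list gives strains of another parent than W303, with a wild type of their own, and which wild type was sequenced is not given in the sources used here. FPR1 had 170.5 RPM in Xrn1-AID and 1332 in Dcp2-AID cells, against 1340 in WT cells with 1-NAA. HIS4, of histidine synthesis, had 72.5 RPM in Xrn1-AID and 636.7 in Dcp2-AID cells, against 2413 in the same WT cells. The pheromone gene MF(ALPHA)1 had 166.6 RPM in ccr4Δ and 10.39 in pan2Δ cells, against 0.3633 in the WT cells labelled 25 °C. These 3 genes were chosen after their values were seen, and in these comparisons the target and the rest of the strain cannot be told apart.

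Libraries held 188519 to 2184459 reads in the Mex67-AA chase, 25838 to 668505 under heat, 320726 to 777753 in thiolutin and 348649 to 5504907 in the other columns, after ENO2 was left out. Replicate D at 4 min of heat was the shallowest. Levels are given in RPM of these totals, and tails as the mean length in adenosines (As). A level is a share of the library, so that less of an mRNA in each cell and fewer cells that hold it cannot be told apart, nor a fall of one mRNA from a rise of others. COX5A lay at 0 to 5.30 RPM in the Mex67-AA chase and at 0 to 38.7 under heat. It did not pass the filter on low counts, so that 33 members were tested. Shares and median changes given for mRNAs beside these tests cover all transcripts tested, not only those of the mRNA class.

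Electrons from succinate enter the respiratory chain at complex II, pass through ubiquinone to complex III, then by cytochrome c to complex IV, which reduces oxygen, and the proton gradient so formed drives ATP synthase. Yeast has no proton-pumping complex I. A few core subunits of complexes III and IV and of ATP synthase are encoded in mitochondrial DNA, and all others are made in the cytosol from nuclear mRNAs and imported. On glucose, as in YPDA, yeast ferments and keeps its respiratory genes low. The Hap2/3/4/5 activator, which binds CCAAT, raises many of them on non-fermentable carbon.

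Because this activator is known for these genes, the 250 bases before the 5′ end of each transcript record, or before the annotated gene where a record begins inside it, were searched for CCAAT on either strand, which reads ATTGG on the gene's strand where it lies in reverse. The motif was in 30 of 34 member promoters (88.2%), against 2070 of 5877 promoters of all mRNA records (35.2%). It was in 13 of 13 promoters of ATP synthase (100.0%), in 6 of 7 of complex IV (85.7%), 8 of 9 of complex III (88.9%) and 3 of 4 of complex II (75%). No match lay in this window for COX9, CYT1, SDH1 and CYC1. The 45 matches of members lay at a median of 121 bases before the 5′ end of the record (quartiles 108 and 148), against 137 (quartiles 72 and 196) for the 2580 matches of all promoters. Genes of the tricarboxylic acid (TCA) cycle held the motif in 7 of 11 promoters (63.6%), those of cytosolic ribosomal proteins in 48 of 133 (36.1%) and those of mitochondrial ribosomal proteins in 19 of 64 (29.7%). Matching letters describe a window and do not show a bound factor. The sites below belong to some of the members named in the results, and others with or without the motif are not shown. COX6 held 3 matches and QCR6 2, of which 1 each is shown. All sites are given 5′ to 3′ on the gene's strand, with the motif in capitals, from the R64 assembly (sacCer3).
SDH2 (chrXII:54077-54101, minus strand): gcggcctcgcATTGGcCCAATtagc
SDH3 (chrXI:179510-179534, plus strand): gtccattctgATTGGctgcggtagc
SDH4 (chrIV:817707-817731, plus strand): aagcattgagCCAATcgctgctgtt
RIP1 (chrV:107003-107027, plus strand): ccataacggaCCAATcagcgttttg
QCR10 (chrVIII:107617-107641, plus strand): tgattttgatCCAATtaaaactaaa
COX6 (chrVIII:209409-209433, plus strand): tccatacgagCCAATcagggccccg
QCR6 (chrVI:224998-225022, minus strand): tgaccgtgcaCCAATgggaagcacg
ATP16 (chrIV:442855-442879, plus strand): agatgcccagCCAATcaaagcgcat
ATP2 (chrX:647216-647240, plus strand): tatatagcggCCAATcaacggcgac

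Heat stress was used in the study to follow mRNAs while transcription is reprogrammed. The respiratory mRNAs took a growing share of the reads up to 14 to 16 min, and a smaller one again at 18 to 20 min. Their sum was 0.607% ± 0.036 at 0 min, 0.822% ± 0.133 at 6 to 8 min, 1.15% ± 0.14 at 10 to 12 min, 1.22% ± 0.065 at 14 to 16 min and 1.05% ± 0.047 at 18 to 20 min (SD, n = 3 each). Complexes II and III rose first, and most genes of complex IV and ATP synthase passed the test only at the later times.

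At 6 to 8 min against 0 min, 13 of the 33 members tested rose and 1 fell by edgeR's quasi-likelihood test with Benjamini-Hochberg adjustment, with a median log2 change of 0.42. Of all 4013 transcripts tested, 19.6% rose and 10.5% fell, with a median of 0.17. All 4 genes of complex II rose, 7 of 9 of complex III, 2 of 6 of complex IV (COX13 and COX6) and none of the 13 of ATP synthase. SDH2, the iron-sulfur subunit of complex II, had 149, 180 and 211 RPM in replicates A, B and D at 6 to 8 min, against 40.7, 70.5 and 34.9 at 0 min. The times did not overlap, and the log2 change was 1.79 ± 0.29 (SE, adjusted p = 8.09e-05). SDH3, a membrane anchor of the same complex, had 267, 357 and 318 RPM, against 161, 173 and 116 at 0 min (log2 change 0.98 ± 0.18, adjusted p = 0.000233). RIP1, the Rieske iron-sulfur protein of complex III, had 294, 331 and 374 RPM, against 170, 130 and 209 (log2 change 1.03 ± 0.20, adjusted p = 0.000426). Both genes were higher in each replicate without overlap. ATP19, a small subunit of ATP synthase, was the member that fell, with 56.9, 86.9 and 85 RPM against 88.4, 111 and 174 (log2 change -0.61 ± 0.20, adjusted p = 0.0246). This fall was not called when any 1 of replicates A, B and D was left out. Without replicate B, 5 members rose, beside 7.68% of mRNAs, and RIP1 was no longer called. With TMM scaling 8 rose, which were all 4 genes of complex II and 4 of 9 of complex III, and 1 fell, beside 14.3% and 13% of mRNAs.

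By 14 to 16 min, 29 of the 33 members had risen against 0 min and none had fallen by edgeR (none at an unadjusted p under 0.05, and none by DESeq2), with a median log2 change of 1.18. Of all mRNAs, 45.1% rose and 15.6% fell, with a median of 0.65. The rise took in 9 of 9 genes of complex III, 4 of 4 of complex II, 5 of 6 of complex IV, 10 of 13 of ATP synthase and CYC1. CYC1, the mobile carrier between complexes III and IV, had 734, 781 and 869 RPM, against 256, 288 and 244 at 0 min (log2 change 1.56 ± 0.17, adjusted p = 2.6e-07). CYT1, the cytochrome c1 of complex III, had 233, 231 and 206 RPM, against 65.4, 66.2 and 116 (log2 change 1.63 ± 0.20, adjusted p = 1.16e-06). SDH3 stood at 387, 425 and 359 RPM, against 161, 173 and 116 (log2 change 1.31 ± 0.18, adjusted p = 2.57e-06). For 28 members, each library at 14 to 16 min lay above each library at 0 min, as it did for 46.6% of mRNAs. ATP5, ATP19, ATP20 and COX9 did not pass the test. The median of all mRNAs moved too, and the count depended on the scaling. TMM scaling, which brings that median to 0.12, called 18 higher, beside 23.5% of mRNAs, among them all genes of complexes II and III but 2 of 13 of ATP synthase and 2 of 6 of complex IV. DESeq2 called 20 higher, beside 22.6% of mRNAs.

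At 18 to 20 min, 28 members were higher than at 0 min and none was lower by edgeR (none at an unadjusted p under 0.05, and 1 by DESeq2), with a median log2 change of 0.82, beside 47.7% of all mRNAs higher and 11.1% lower and a median of 0.74. The smallest adjusted p belonged to CYC1, COX6 and QCR6. CYC1 had 793, 869 and 841 RPM, against 256, 288 and 244 at 0 min (log2 change 1.63 ± 0.17, adjusted p = 2.4e-07). COX6, a subunit of complex IV, had 473, 467 and 459 RPM, against 207, 205 and 198 (log2 change 1.18 ± 0.17, adjusted p = 1.08e-05). QCR6, the acidic hinge protein of complex III, had 213, 149 and 133 RPM, against 37.1, 64.0 and 58.1 (log2 change 1.80 ± 0.27, adjusted p = 1.43e-05). In all 3 genes the libraries of both times were apart. With TMM scaling 5 members were higher and 2 lower, beside 17.6% and 18.6% of mRNAs. DESeq2 called 6 higher and 1 lower, beside 16.6% and 17.6%, so that the share of members higher was near that of all mRNAs under both. Without replicate B 16 were higher, beside 26.5%. The median of the members lay close to that of all mRNAs at this time, and under TMM scaling the median of ATP synthase turned to -0.05.

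The full courses showed a peak in some members and a plateau in others. SDH2 had 40.7, 31.8, 149, 229, 209 and 110 RPM at 0, 2, 6, 10, 14 and 18 min in replicate A. In replicate B it had 70.5, 129, 180, 276, 256 and 140 at 0, 4, 8, 12, 16 and 20 min, and in replicate D 34.9, 77.4, 211, 247, 158 and 120 at the same times. RIP1 likewise stood highest at 10 to 16 min, with 413 and 399 RPM in replicate A at 10 and 14 min and 242 at 18 min. CYC1 did not show this peak, with 734 and 793 RPM at 14 and 18 min in replicate A, 781 and 869 at 16 and 20 min in B and 869 and 841 in D. No member passed the test between 18 to 20 and 14 to 16 min, and 0.00% of all mRNAs were called higher and 0.00% lower by edgeR. At an unadjusted p under 0.05, 6 members were lower, beside 3.59% of mRNAs, and DESeq2 called 1 member lower, beside 0.125%. The log2 difference was -0.75 for SDH2 (adjusted p = 0.14) and -0.71 for RIP1 (adjusted p = 0.088), both chosen after their values were seen, and 11 members lay lower at 18 to 20 min without overlap, beside 3.81% of mRNAs.

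**Figure D1:**
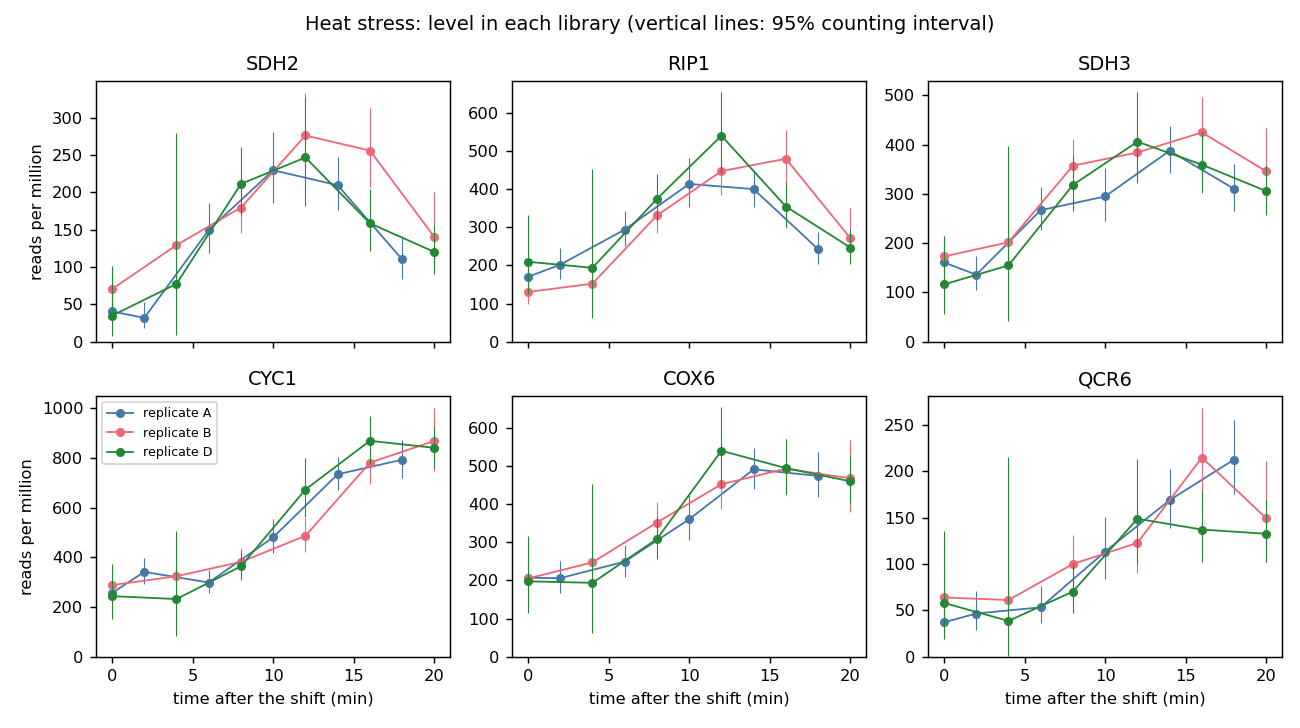
RPM (y axis) against minutes at 37 °C (x axis) for SDH2, RIP1, SDH3, CYC1, COX6 and QCR6, with 1 point for each library of replicates A, B and D and a vertical line for the 95% counting interval. SDH2 and RIP1 stand highest at 10 to 16 min, whereas CYC1 lies between 734 and 869 at 14 to 20 min, above 244 to 288 at 0 min.

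**Figure D2:**
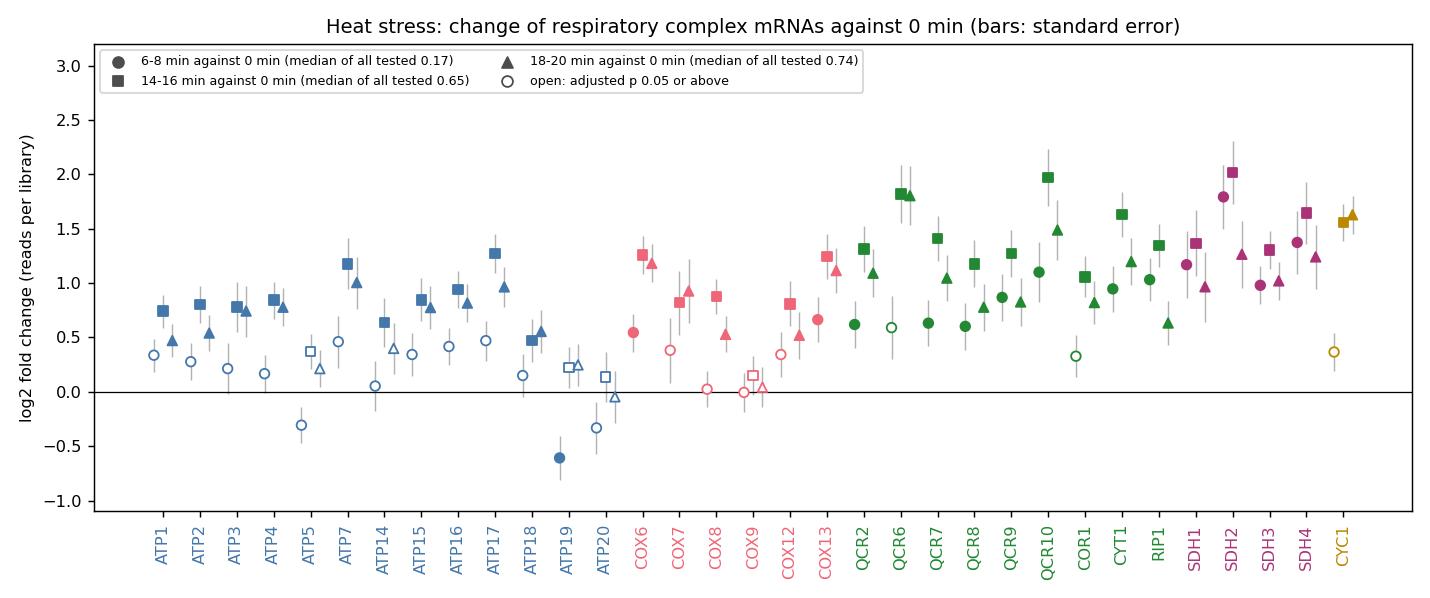
Log2 change against 0 min (y axis) of each tested member (x axis) at 6 to 8, 14 to 16 and 18 to 20 min at 37 °C, with standard errors as bars and open symbols where the adjusted p is 0.05 or more. Genes are blue for ATP synthase, pink for complex IV, green for complex III, purple for complex II and ochre for cytochrome c, and filled circles for 6 to 8 min are found mainly in complexes III and II, with SDH2 at 1.79.

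Genes around the complexes rose with them at 14 to 16 min. All 10 tested genes of the TCA cycle rose, with log2 changes of 3.16 for CIT1 (citrate synthase) and 2.37 and 2.22 for IDH2 and IDH1 (isocitrate dehydrogenase), which supply the chain with reducing equivalents. Of assembly factors and translational activators, 18 of 25 rose, among them COX15 (1.83), SCO1 (1.34) and COX23 (1.16), which serve complex IV. Of the list of other dehydrogenases, isoforms and inhibitors, 7 of 8 rose. Its leaders were CYC7, the second form of cytochrome c, at 5.84, and STF2 and STF1, which act on the inhibition of ATP synthase, at 5.28 and 4.29. None of these lists held a gene that fell, whereas 129 of 130 cytosolic ribosomal protein mRNAs fell. Mitochondrial ribosomal protein mRNAs rose in 35 of 61 genes, but in 4 with TMM scaling. TMM scaling kept the direction of the 3 lists that rose, with 10 of 10, 11 of 25 and 5 of 8 genes higher. At 6 to 8 min the rise had already taken in 8 of 10 TCA cycle genes, but 5 of 25 assembly factors. The joint record of COX4 had 501.1 RPM at 14 min, against 252.9 at 0 min in replicate A, 479.0 at 16 min, against 266.9 at 0 min in replicate B, and 515.0 at 16 min, against 186.0 at 0 min in replicate D.

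Few tails of the members passed the test under heat. At 6 to 8 min, COX7, a small subunit of complex IV, was the 1 member of 33 whose mean tail passed limma's test, with 40.7 ± 3.0 As against 30.5 ± 2.5 As at 0 min (SD, n = 3 each, difference 10.23 As ± 2.40 SE, adjusted p = 0.037). This call was lost when any 1 of the replicates was left out. Of all mRNAs, 1.93% had longer and 3.16% shorter tails by this test. The median difference was 3.52 As over the members and -0.19 As over all mRNAs, with 15 members longer without overlap, beside 18.4% of mRNAs, and 13 longer at an unadjusted p under 0.05, beside 10.6%. At 14 to 16 min no member and 0.00% of mRNAs were called longer or shorter by limma (3 members were shorter at an unadjusted p under 0.05, beside 5.36% of mRNAs). Without overlap, 7 members were shorter and 6 longer, beside 8.76% and 24.9% of mRNAs. At 18 to 20 min no member was called, beside 1.78% of mRNAs longer and 0.0810% shorter, with 4 members shorter at an unadjusted p under 0.05, beside 2.59%. Here 8 members were shorter and 1 longer without overlap, beside 6.16% and 30.0% of mRNAs, and 4 members lay above the median of all mRNAs. The median tail of the members was 31.0 As at 0 min, 35.3 at 6 to 8 min, 31.8 at 14 to 16 min and 30.1 at 18 to 20 min. That of all mRNAs was 34.1, 36.4, 37.4 and 37.3 As at these times. Between 18 to 20 and 14 to 16 min no member's tail was called (1 was shorter at an unadjusted p under 0.05, beside 3.15% of mRNAs), beside 1.53% of mRNAs longer and 0.00% shorter. Without overlap, 8 members were shorter and 0 longer, beside 8.38% and 11.9% of mRNAs.

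The Mex67-AA chase was used in the study to cut off the supply of new cytoplasmic mRNA, so that decay of the mRNAs already made can be followed. Most respiratory mRNAs fell by the later times, with a median change less negative than that of all mRNAs. At 12 to 16 min after rapamycin against 0 min, 15 of 33 members fell and 1 rose, with a median log2 change of -0.37. Of 4669 transcripts tested, 69.2% fell and 3.00% rose, with a median of -1.20. All 33 members lay above the median of all mRNAs. The decreases were uneven over the complexes, with 8 of 9 genes of complex III, 5 of 13 of ATP synthase, 1 of 4 of complex II (SDH3) and none of 6 of complex IV, and CYC1. QCR9, a small subunit of complex III, averaged 138 ± 57 RPM at 12 to 16 min (SD, n = 6 libraries of the 3 replicates), against 252 ± 34 at 0 min (SD, n = 3), with a log2 change of -0.95 ± 0.21 (SE, edgeR adjusted p = 0.00024). RIP1 averaged 112 ± 33, against 192 ± 85 (log2 change -0.86 ± 0.19, edgeR adjusted p = 0.000254), and here the times overlapped, with 94.0 RPM at 0 min in replicate C. ATP7, a stalk subunit of ATP synthase, averaged 76.4 ± 13.3, against 144 ± 27.6 (log2 change -0.85 ± 0.23, edgeR adjusted p = 0.00203). ATP1, the α subunit of the catalytic F1 head, was the member that rose, with 352 ± 54 against 256 ± 74 (log2 change 0.36, edgeR adjusted p = 0.028), and its libraries overlapped. No member lay higher without overlap and 5 lay lower, beside 1.69% and 52.1% of mRNAs. Without replicate A, 5 members fell and none rose, beside 47.8% of mRNAs that fell, and neither RIP1 nor ATP1 was called. Without the replicate block 6 fell, beside 64.4%.

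At 20 to 30 min, 27 members were lower and 1 was higher, with a median log2 change of -0.90. Of 4669 transcripts tested, 75% were lower and 4.86% higher, with a median of -1.62. QCR9 had 48.2, 78.8 and 60.0 RPM in replicates A, B and C at 20 to 30 min, against 266, 278 and 214 at 0 min. Its log2 change was -2.03 ± 0.25 (SE, adjusted p = 1.84e-07). RIP1 had 47.3, 74.0 and 49.7 RPM, against 233, 248 and 94.0 (log2 change -1.76 ± 0.23, adjusted p = 3.5e-07). ATP7 had 22.8, 52.8 and 17.6, against 118, 141 and 173 (log2 change -2.09 ± 0.29, adjusted p = 5.78e-07). None of these 3 genes overlapped between the times. CYT1 was the member called higher, with 127, 72.6 and 80.4 RPM, against 71.4, 70.6 and 47.0 (log2 change 0.56 ± 0.23, adjusted p = 0.031), and this call was lost without replicate A, without replicate C and without the replicate block. ATP1, ATP2, ATP16, COX13 and SDH1 did not pass the test. ATP16, the δ subunit of the F1 rotor, had 172, 211 and 159 RPM, against 240, 192 and 222. Of the 33 members, 27 lay above the median of all mRNAs.

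Whether a member is called lower or higher depended on the scaling of the libraries. With TMM scaling, 19 members were higher and none lower at 12 to 16 min (members' median 0.54, all mRNAs -0.30), beside 21.4% and 31.7% of mRNAs. At 20 to 30 min 9 were higher and 6 lower (members' median 0.35, all mRNAs -0.38), beside 21.1% and 30.5%. DESeq2 called 15 higher and none lower at 12 to 16 min, beside 18.7% and 32.4% of mRNAs, and 11 higher and 5 lower at 20 to 30 min, beside 21.0% and 25.9%. Under each of these scalings the median of the members lay above that of all mRNAs at both times. Assembly factors fell in 25 of 27 genes and mitochondrial ribosomal proteins in 62 of 62 at 12 to 16 min, whereas none of 10 TCA cycle genes fell and none rose. Cytosolic ribosomal protein mRNAs rose in 44 and fell in 11 of 130 genes. With TMM scaling 13 assembly factors and 33 mitochondrial ribosomal protein mRNAs were still lower, whereas 9 TCA cycle genes, 6 of 6 genes of complex IV and 117 cytosolic ribosomal protein mRNAs were higher.

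Half-lives were computed on shares of the library totals from all pairs of times within a replicate, as in the study. The members had a median half-life of 15.9 min, with 16.4, 18.3 and 13.6 min in replicates A, B and C. For the 31 members with at least 10 reads in each control library the median was 17 min, against 8.87 min for 2994 mRNAs under the same minimum, and 29 of the 31 lay above that median. ATP synthase had a median of 18.2 min, complex IV 17 min (18.2 min without COX5A), complex II 14.3 min, complex III 11.8 min and CYC1 14.3 min. The longest were those of ATP16 at 50.9 min (49.2, 74.0 and 37.1 in replicates A, B and C), ATP2, the catalytic β subunit, at 35.6 min (25.7, 53.8 and 39.3), and ATP5, the stator subunit that confers oligomycin sensitivity, at 29.2 min (25.7, 36.5 and 23.4). COX5A, with as few as 1 read in a control library, had 1.95 min (2.73, 1.27 and 2.01). Among the 31 members with at least 10 reads, the shortest were those of QCR10 at 8.57 min (7.56, 10.1 and 8.21) and QCR9 at 8.68 min (8.25, 10.2 and 7.38). The replicates of ATP16 and of ATP2 lay above those of QCR10 and QCR9 without overlap. Decay constants of 0 or less are removed in this method, which matters for mRNAs that hardly fell. ATP1 kept 7 of 40 pairs and CYT1 17 of 40, and their half-lives of 23.0 and 22.0 min rest on these. As a measure of scale, the median was 34.7 min for cytosolic ribosomal proteins, 24.2 min for the TCA cycle, 5.39 min for mitochondrial ribosomal proteins and 4.09 min for assembly factors.

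**Figure D3:**
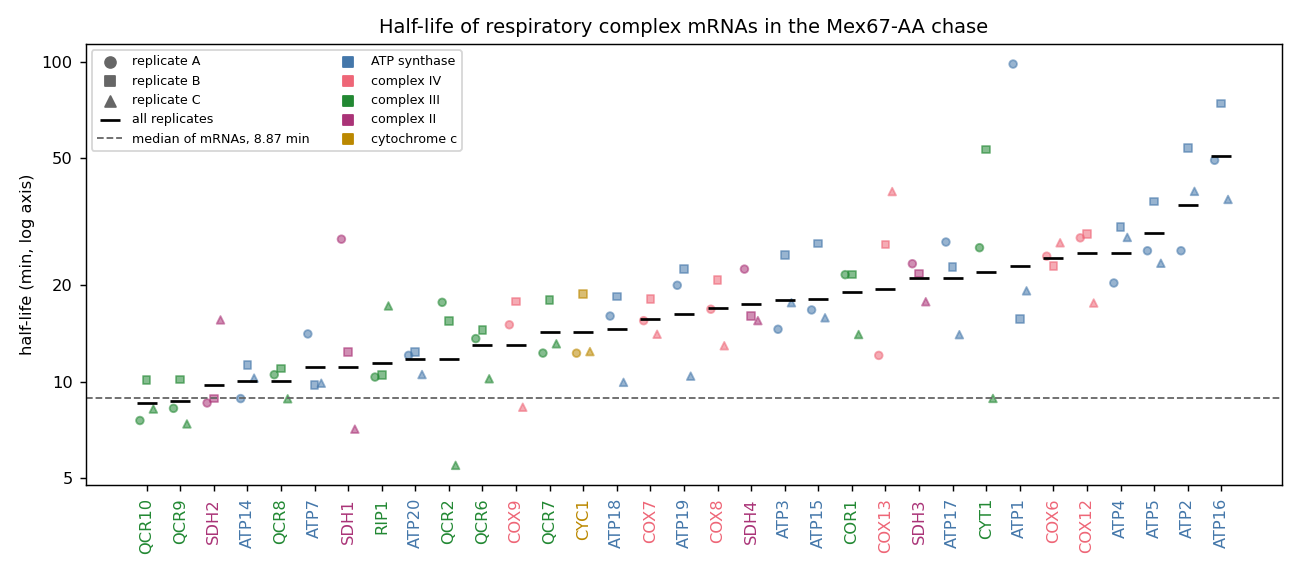
Half-life in min (y axis, log scale) in the Mex67-AA chase of each member but COX5A (x axis, in rising order, coloured by complex), with 1 symbol for each of replicates A, B and C and a short bar for the value over all replicates. QCR10 at 8.57 min and ATP16 at 50.9 min are the ends of the order, and the dashed line is the median of 8.87 min over mRNAs with at least 10 reads in each control.

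Tails shortened in most members at first, and fewer passed the test later outside ATP synthase. At 12 to 16 min, 23 of the members had shorter mean tails by limma, with a median difference of -8.86 As. None had longer ones (none at an unadjusted p under 0.05). Of 3138 transcripts tested, 55.9% were shorter and 2.29% longer, with a median of -8.87 As. The median of the members was thus close to that of all mRNAs. The 6 libraries of this bin come from 3 replicates, and several are times of the same replicate, which the test took as separate values. A fit with 1 library per replicate and bin was made for levels only. ATP4, a stator subunit of ATP synthase, had 22.9 ± 1.8 As at 12 to 16 min (SD, n = 6 libraries), against 35.5 ± 0.63 As at 0 min (SD, n = 3), a difference of -12.42 As ± 1.72 SE (limma adjusted p = 0.00131). ATP1 had 19.5 ± 1.5 As, against 31.6 ± 2.5 As (difference -11.92 As, limma adjusted p = 0.00228), and ATP15, the ε subunit, 24.1 ± 2.2 As, against 34.5 ± 3.6 As (difference -10.69 As, limma adjusted p = 0.00231). Of ATP synthase 12 of 13 genes were called shorter, of complex IV 5 of 6, of complex III 4 of 9 and of complex II 1 of 4. Without replicate A, no member passed the test, beside 0.00% of 2701 transcripts shorter and 0.0370% longer.

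At 20 to 30 min, 15 members had shorter and 1 had longer tails, beside 46.9% of 2307 transcripts shorter and 14.2% longer. The study left these late times out of its deadenylation modelling. It attributes longer tails there, likely, to a few hyperadenylated nuclear mRNAs, which weigh more as cytoplasmic mRNAs are lost. Their part in the values below was not tested. ATP synthase stayed short, with 11 of 13 genes called and a median difference of -11.08 As, whereas the median was -4.19 As in complex IV, -0.83 As in complex III and 3.03 As in complex II. ATP1 had mean tails of 13.1, 19.1 and 17.1 As in replicates A, B and C, against 34.5, 29.7 and 30.7 As at 0 min (difference -15.15 As, adjusted p = 0.000552). ATP4 had 20.4, 21.4 and 21.3 As, against 34.7, 35.8 and 35.9 As (difference -14.45 As, adjusted p = 0.000398), and ATP17, a small subunit of the membrane part, averaged 18.6 ± 1.7 As, against 31.4 ± 2.4 As (limma adjusted p = 0.000539, n = 3 each). CYT1 was called longer, with 44.5, 33.3 and 61.1 As, against 35.7, 33.9 and 30.0 As (difference 13.12 As ± 5.17 SE, adjusted p = 0.045). Its libraries overlapped, and the call was lost without replicate A, without replicate C and without the replicate block. Without replicate A, 8 of 29 members had shorter tails, beside 22.3% of mRNAs. RIP1 had 61.5, 37.9 and 59.5 As, against 42.9, 36.4 and 37.1 As (difference 14.16 As, adjusted p = 0.053), and SDH1, the flavoprotein of complex II, differed by 10.84 As (adjusted p = 0.093). Both were chosen after their values were seen and did not pass the test.

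**Figure D4:**
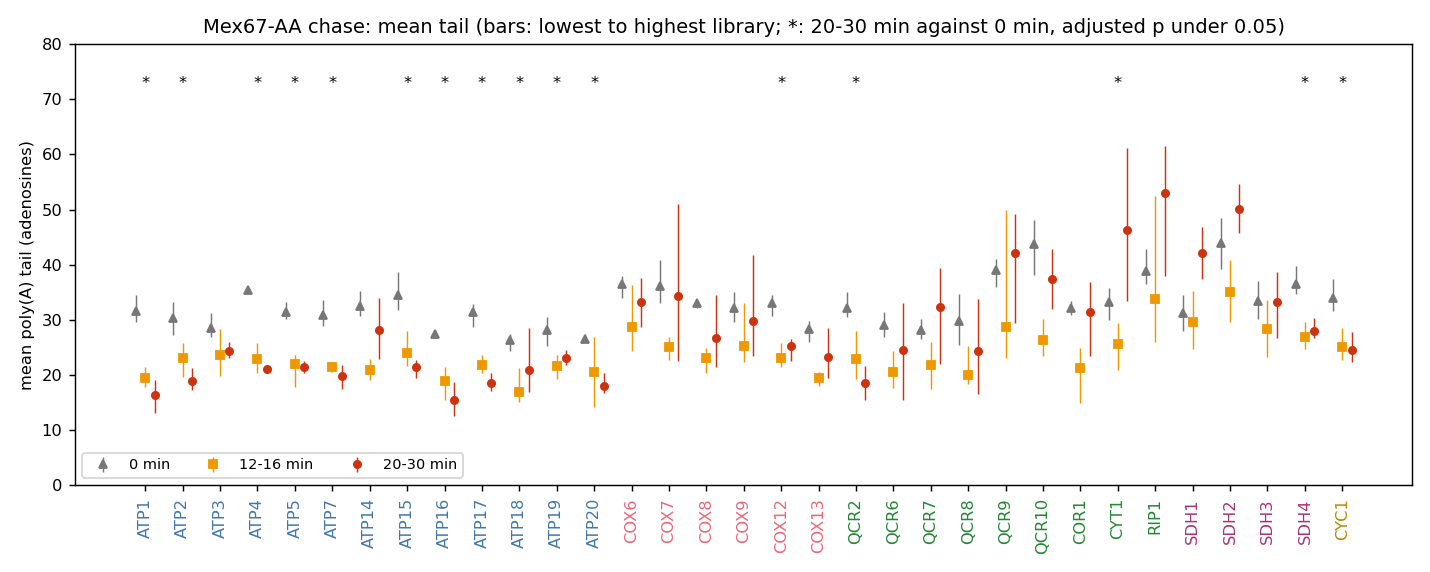
Mean tail in As (y axis) of each tested member (x axis, gene labels coloured by complex as in the plot of changes under heat) in the Mex67-AA chase at 0, 12 to 16 and 20 to 30 min, as the mean over libraries with a bar from the lowest to the highest library and an asterisk where 20 to 30 min differs from 0 min at an adjusted p under 0.05. ATP4 stands at 35.5, 22.9 and 21.0 As in the order of the times, whereas CYT1 reaches 46.3 As at 20 to 30 min with bars that overlap.

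Thiolutin gave another chase. The table of replicate B gives 1 column over all its times and was not used here, so that only replicate A could be followed, with 1 library a time and no test, and a change past 1.5-fold is given as a description. The sum of the members was 1.428% of the reads at 0 min, 2.085% at 30 min and 2.037% at 60 min. At 60 min, 12 of 33 members lay above and 5 below 1.5-fold of their level at 0 min, beside 34.1% and 33.2% of 3380 mRNAs. At 30 min it was 14 above and 2 below, beside 28.1% and 36.4%, and at 16 min 5 above and none below, beside 15.9% and 30.5%. All 4 genes of complex II were above at 16, 30 and 60 min. SDH2 had 215, 256, 207, 377, 418, 452, 688 and 677 RPM at 0, 4, 8, 12, 16, 20, 30 and 60 min, and stood at 60 min at 3.14 times its level at 0 min. SDH1 had 139, 109, 109, 186, 266, 292, 499 and 412 at these times (2.96-fold at 60 min). SDH4, the other membrane anchor of complex II, ended at 2.81-fold and ATP2 at 2.47-fold, with 4574 RPM at 60 min against 1854 at 0 min. The members that ended lowest were COX7, at 0.25 of its level with 37.4 RPM at 60 min against 158 at 0 min, CYT1 at 0.30, ATP19 at 0.49 and CYC1 at 0.53. No gene of complex IV lay above at 60 min. Of cytosolic ribosomal protein mRNAs, 128 of 129 lay below at 60 min, and the part of this loss in the shares of the other mRNAs was not tested. The 0 min library of this chase already held a larger share of the members than the controls of the other chases.

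The remaining conditions had 1 column each, and their values carry counting error only. The 95% counting intervals of the members in these columns had a median half-width of 10.6% of the value and reached 45.5%. A member is given as above or below when it was past 1.5-fold, and as longer or shorter when its mean tail differed by more than 5 As. Reads of the targeted gene were fewer in its own strain, with 8 reads of DCP2 against 154 and 12 of KEM1 (the gene of Xrn1) against 262. CCR4 had 10 against 165 and POP2 1 against 75. In Dcp2-AID and Xrn1-AID cells the auxin system acts on the protein, so that these reads do not measure the depletion. The totals of the columns also differ.

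Depletion of Dcp2, the decapping enzyme, and of Xrn1, the cytoplasmic 5′ exonuclease, was compared with the same WT pool with 1-NAA. In Dcp2-AID cells, 1 of 33 members lay above and 2 below, beside 32.9% and 7.58% of all mRNAs. CYC1 had 941 RPM in Dcp2-AID cells, against 525 in WT cells (1.79-fold). QCR6 had 91.0, against 198 (0.46), and QCR2, a core protein of complex III, 137, against 218 (0.63). Tails were shorter in 12 members and longer in none, beside 52.9% and 2.72% of mRNAs, with QCR9 at 30.5 As in Dcp2-AID cells, against 39.9 As in WT cells. In Xrn1-AID cells, 20 members lay below and none above, beside 18.5% and 24.3% of all mRNAs. All 4 genes of complex II were below, 6 of 9 of complex III, 3 of 6 of complex IV and 6 of 13 of ATP synthase. SDH4 had 63.7 RPM in Xrn1-AID cells, against 200 in WT cells (0.32), SDH2 72.5, against 210 (0.35), and QCR2 84.3, against 218 (0.39). Of the TCA cycle genes 9 of 10 were below as well. FPR1 and HIS4 were also lower in this strain, as given above, so that loss of Xrn1 and the other strain differences cannot be told apart here. By tail, 1 member was longer (QCR2, 42.4 As against 37.1 As) and none shorter, beside 6.78% and 31.1% of mRNAs.

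Pab1 is the main cytoplasmic poly(A)-binding protein, and both auxin times share 1 pool without auxin. PAB1 reads themselves were 65 and 64 with auxin for 1 h and 2 h, against 40 without, and the auxin system acts on the protein, so that this checks no label. At 1 h, 3 members lay above and 1 below, beside 2.68% and 17.7% of mRNAs. At 2 h, 2 lay above and 9 below, beside 6.33% and 27.0%. SDH4 had 196 RPM at 1 h and 220 at 2 h, against 125 without auxin. CYC1 had 733 and 554 at these times, against 1059, and ATP4 had 193 and 171, against 319. Tails were longer in 30 of 33 members at 1 h (median difference 9.94 As) and in 33 of 33 at 2 h (13.76 As), and none was shorter. Of all mRNAs, 84.6% were longer and 0.862% shorter at 1 h (median 11.24 As), and 88.0% and 1.26% at 2 h (median 11.63 As). CYT1 had 56.9 As at 1 h, against 39.7 As without auxin, and ATP14 had 51.2 As at 2 h, against 31.5 As.

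The deadenylases Ccr4 and Pop2 belong to the Ccr4-Not complex, and Pan2 to Pan2-Pan3. The ccr4Δ and pan2Δ strains also differed from WT in MF(ALPHA)1, as given above, so that deletion and strain background cannot be told apart. In ccr4Δ cells 19 of 34 members lay above and none below, beside 24.5% and 4.38% of all mRNAs. QCR10, a small subunit of complex III, had 163 RPM in ccr4Δ cells, against 61.4 in WT cells (2.65-fold). SDH4 had 185, against 79.2 (2.34-fold), and SDH3 356, against 158 (2.26-fold). CYC1 had 201 RPM, against 275 (0.73), which did not pass 1.5-fold. Tails were longer in 17 members and shorter in none, with a median difference of 5.02 As, beside 65.6% and 1.21% of mRNAs. In pan2Δ cells, set against the same WT pool, 2 members lay above and 2 below, beside 6.79% and 18.0% of mRNAs. ATP1 had 363 RPM in pan2Δ cells, against 230 in WT cells (1.58-fold), and SDH2 38.4, against 69.2 (0.56). Longer tails were found in 21 members and shorter ones in none, beside 60.1% and 4.63%, and the longest difference was again that of ATP1, with 44.3 As, against 34.7 As.

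In the pop2Δ library, 28 of 33 members lay above and 1 below, beside 51.4% and 5.50% of mRNAs. The study's strain list names no pop2Δ strain, so that deletion and strain background cannot be told apart here either. QCR10 had 255 RPM in pop2Δ cells, against 66.5 in WT RNA (3.84-fold), SDH4 250, against 68.8 (3.63-fold), and COX7 338, against 93.4 (3.63-fold). CYC1 was the member below, with 152, against 231 (0.66). Tails were longer in 2 members and shorter in 2, beside 42.5% and 6.49% of mRNAs. The longer ones were COX6 and QCR6, and the shorter ones were SDH1 and SDH4, with 35.1 As for SDH4 in pop2Δ cells, against 42.3 As in WT RNA. QCR10 and SDH4 thus had the 2 highest ratios among the members with at least 50 reads in both columns of the ccr4Δ and the pop2Δ comparison, each with a WT column of its own, and CYC1 the lowest in both. This was not particular to these deletions. By the same minimum both genes were also among the 3 highest after auxin for 1 h and 2 h in Pab1-AID cells, and SDH4 in digested WT RNA. CYC1 was the lowest in Pab1-AID cells at 2 h and in digested WT RNA as well. WT RNA digested with Xrn1, which removes RNAs without a cap, held 4 members above and 4 below, beside 8.58% and 16.6% of mRNAs. COX7 had 160 RPM in digested RNA, against 93.4 in undigested RNA (1.71-fold), and CYC1 126, against 231 (0.55). The count above went to 19 when ENO2 was kept in the totals. No tail was longer and 3 were shorter, beside 18.0% and 11.6% of mRNAs.

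**Figure D5:**
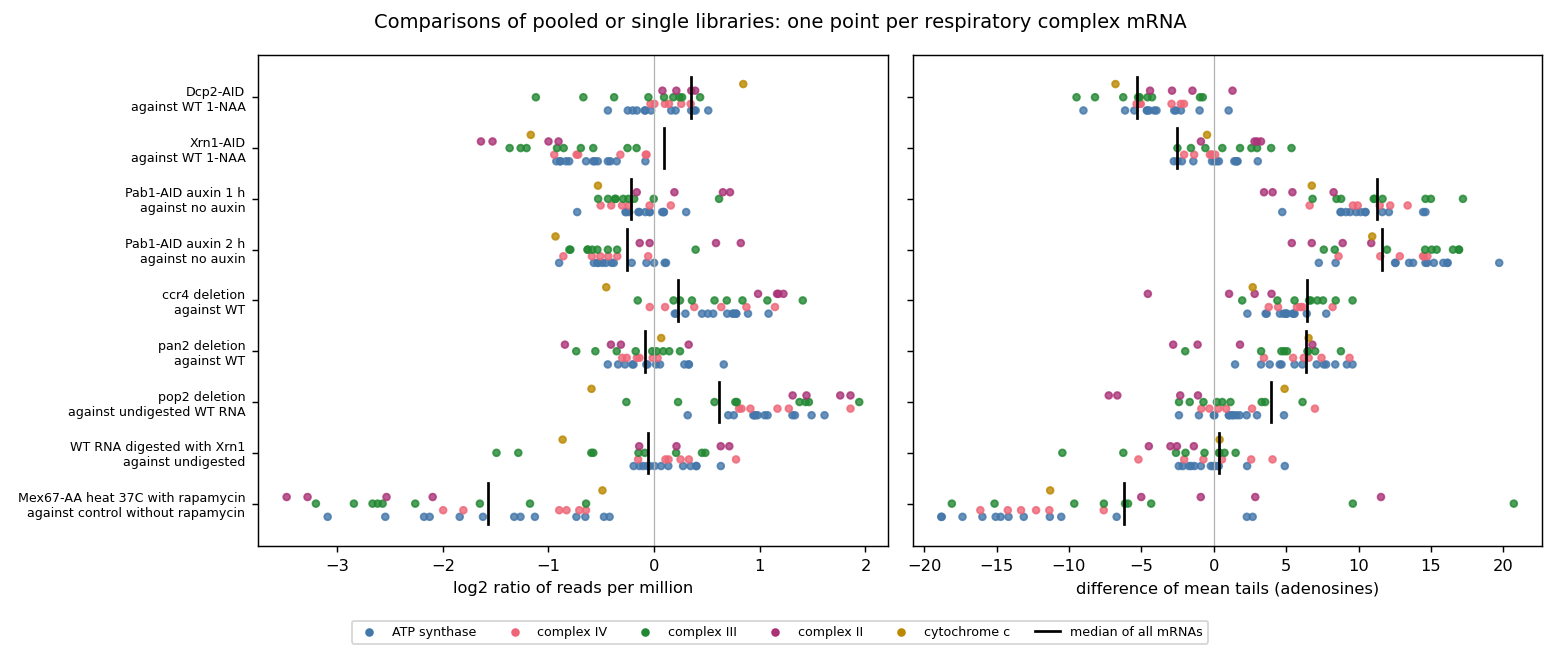
Log2 ratio of RPM (left, x axis) and difference of mean tails in As (right, x axis) for each comparison of pooled columns or single libraries (rows), with 1 point for each member but COX5A, coloured by complex, and a black line for the median of all mRNAs. Complex II lies left of that line in Xrn1-AID cells (SDH4 at 0.32 of WT) and right of it in ccr4Δ (2.34-fold) and pop2Δ cells (3.63-fold), and the tails of most members lie right of 0 after Pab1 depletion.

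In the last comparison, heat and the export block were combined. With rapamycin at 37 °C, no member lay above and 30 of 33 lay below the pool labelled control without rapamycin, beside 7.77% and 72.2% of mRNAs. SDH2 had 26.0 RPM with rapamycin at 37 °C, against 292 in the pool labelled control (0.090), SDH4 48.4, against 472 (0.10), and RIP1 54.5, against 503 (0.11). The study describes Mex67-AA cells heated with or without rapamycin given beforehand, whereas the labels of this pool name 25 °C. Its heat shock mRNAs were high, as given above, so that the ratio cannot be read as one against cells at 25 °C. The study also lists Mex67-AA reads at 37 °C apart from those with rapamycin, and their number is close to that of this pool. The pool may thus hold heated cells without rapamycin. Against the Mex67-AA pool at 0 min of the 25 °C chase, 22 members lay below and none above, beside 75.5% and 4.58% of mRNAs. ATP1 had 295 RPM with rapamycin at 37 °C, against 293 at 0 min, COX13 206, against 203, and RIP1 54.5, against 238 (0.23). Tails were longer in 3 and shorter in 25 members against the pool labelled control, with a median difference of -11.3 As, beside 21.6% and 54.6% of mRNAs. RIP1 had 54.6 As with rapamycin at 37 °C, against 33.9 As in the pool labelled control, and ATP4 17.5 As, against 36.4 As. Against the pool at 0 min, 5 were longer and 24 shorter, beside 19.4% and 67.2%. Long RIP1 and short ATP4 tails were thus measured with rapamycin at 37 °C and at 25 °C, although RIP1 did not pass the test at 25 °C.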

How the data were processed

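Native RNA of budding yeast was sequenced on Nanopore in 94 samples, and 13 of the 15 deposited tables were used here. The authors mapped them to their own yeast transcriptome (minimap2 2.17), filtered alignments (SAMtools 1.9) and estimated pA-tails with Nanopolish, of which only passing estimates were kept. Per the labels the genome is sacCer3, and transcript positions overlapped the annotated gene in the R64 assembly for all 35 listed genes. Counts, as deposited by the authors, are whole reads per transcript and not normalized, and the deposited tail lengths are the mean, median and quantiles per transcript in adenosines. Values came from 46 libraries with a column of their own and 12 pooled columns, in 522 of 1320 value columns, and the other 798 were not used. Those of thiolutin replicate B and of a double deletion are not analysed here.

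ENO2 was left out, as in the study. By its account some datasets held ENO2 reads from unrelated libraries, where it served as a synthetic spike-in. The share of ENO2 was uneven, with 2.455% at 0 min of heat in replicate A and 39.7% at 60 min of thiolutin. It was 36.2% in undigested and 2.28% in digested WT RNA. Libraries were scaled to their total without ENO2. Levels of the chases were tested with edgeR 4.0.16 (quasi-likelihood, filterByExpr, replicate as a block, time bins as groups, no further scaling) and mean tails with limma 3.58.1 on transcripts with at least 10 reads in at least 2 libraries of each bin. Both used Benjamini-Hochberg adjustment over all transcripts tested and a threshold of 0.05. Standard errors of edgeR changes were derived from the F statistic. Conditions without replicates were compared by the log2 ratio after adding 0.5 reads, with at least 20 reads in sum and a fold of 1.5, and by tail differences over 5 adenosines. For half-lives a missing count was set to 0.01 reads, the control time to 2.67 min, and rate constants of 0 or less were removed over 40 pairs of times. Intervals are exact binomial intervals of the share of the library at 95% confidence and cover counting error only. Direct RNA reads are not amplified.

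Up to 3 members a direction were named, by the smallest adjusted p where tested and otherwise by the largest change among members with at least 50 reads in both columns. From the lists of other genes up to 3 were named. Members and lists were chosen with earlier results of these data known. Alternatives covered TMM scaling, DESeq2 1.42.0, no filter, no block, other tail summaries, other minimum reads and folds, ENO2 kept, left-out replicates and, for levels of the Mex67-AA chase, 1 library per replicate and bin. Scripts ran in Python 3.11.15 (pandas 2.3.3, NumPy 2.4.6, SciPy 1.17.1, matplotlib 3.10.9) and R 4.3.3 and were tested on simulated data. Same-numbered libraries were checked for shared deviations, and their median correlation was 0.214, 0.464 and 0.601 in replicates A, B and C of the Mex67-AA chase and -0.011, 0.112 and 0.056 in replicates A, B and D under heat. The block follows the study, which set each library against the control of its own replicate.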

Additional observations from a re-analysis of the deposited data

Results flagged for a closer look

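The joint record of COX4 with YGL188C and a cryptic unstable transcript held 16128 reads over the libraries and pools used. It stands outside the mRNA class and was counted among the members in none of the tests above. The WT pool labelled 25 °C held 1179 reads of members in second records of the same genes, which the other tables do not use in the same way. For ATP7 the second record had 198 reads beside 884 in the first (18.3% of both), for ATP19 16.4% and for SDH3 15.4%. Adding them to the first records, an alternative chosen after the data were seen, moved no count of members in the ccr4Δ or pan2Δ comparison by over 1.5 times.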

How the results depend on the processing

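Counts of members are given here as the value under the alternative, with the value of the report after it. With TMM scaling, 19 members were higher (1) and 0 lower (15) in the Mex67-AA chase at 12 to 16 min, and 9 higher (1) and 6 lower (27) at 20 to 30 min. The log2 change at 12 to 16 min turned to 0.027 for RIP1 and 0.043 for ATP7. Under heat TMM gave 8 higher (13) at 6 to 8 min, 18 higher (29) at 14 to 16 min, and 5 higher (28) and 2 lower (0) at 18 to 20 min. DESeq2 gave 15 higher and 0 lower, then 11 higher and 5 lower, in the Mex67-AA chase. Under heat it gave 8 higher and 2 lower (1) at 6 to 8 min, 6 higher and 1 lower at 18 to 20 min, and 1 lower (0) between 18 to 20 and 14 to 16 min. Without the filter on low counts, 0 members were higher (1) at both times of the Mex67-AA chase, 0 lower (1) at 6 to 8 min of heat and 2 lower (0) between 18 to 20 and 14 to 16 min. Using 1 library per replicate and bin gave 0 higher at 20 to 30 min of the Mex67-AA chase.

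Without the replicate block, 0 members were higher and 6 lower (15) at 12 to 16 min of the Mex67-AA chase, and 0 higher and 0 with longer tails at 20 to 30 min. Under heat, 0 were lower and 2 had longer tails (1) at 6 to 8 min, and 1 had shorter tails (0) at 18 to 20 min. Other counts moved by less than 1.5 times without the block. The correlation of same-lettered libraries fell to -0.037 in replicate A of the Mex67-AA chase and to -0.331 in replicate A under heat for the least alike pair, so that the letters did not pair all libraries.

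Leaving out 1 replicate at a time gave 0 to 1 members higher and 5 to 15 lower at 12 to 16 min of the Mex67-AA chase. Shorter tails were 0 to 28 there (0 without replicate A, beside 0.00% of transcripts). At 20 to 30 min it gave 0 to 1 higher, 0 to 2 longer tails and 8 to 20 shorter tails. Under heat it gave 5 to 10 members higher, 0 to 0 lower and 0 to 2 longer tails at 6 to 8 min, 24 to 29 higher at 14 to 16 min and 16 to 27 at 18 to 20 min.

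With the median tail, 0 tails were longer (1) and 25 shorter (15) at 20 to 30 min of the Mex67-AA chase, 3 longer (1) in Xrn1-AID cells, 1 shorter (0) in ccr4Δ cells and 1 longer (3) at 37 °C with rapamycin. With the mean of the upper quantiles, 2 were longer at 20 to 30 min of the chase and 0 at 6 to 8 min of heat. With at least 20 reads, 3 were longer (1) at 6 to 8 min of heat, 1 shorter (0) at 14 to 16 min and 2 shorter (0) at 18 to 20 min. With a 2-fold threshold, 0 members were above and 1 below in Dcp2-AID cells, 6 below (20) in Xrn1-AID cells, 0 above and 0 below in Pab1-AID cells at 1 h and 2 h, 8 above (19) in ccr4Δ, 0 above and 0 below in pan2Δ, 17 above (28) and 0 below in pop2Δ and 0 above and 2 below in digested RNA. With ENO2 kept in the totals, 2 were below (1) in Pab1-AID cells at 1 h, 1 above (2) at 2 h, 1 above (2) in pan2Δ, 0 below (1) in pop2Δ, and 19 above (4) and 2 below (4) in digested RNA. With at least 50 reads in both columns, 1 was above in pan2Δ, 1 tail was longer and 1 shorter in pop2Δ, and 2 were below in digested RNA. Against the pool at 0 min, 5 tails were longer (3) at 37 °C with rapamycin. With rate constants of 0 or less kept, the median half-life of the members was 19.26 min (15.95). The cause of these changes was not tested. Of the values for single members, 33 kept their direction without passing the threshold under an alternative and 173 kept both.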

Other observations

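Of the 29 tested members with CCAAT in the window, 26 rose at 14 to 16 min of heat (89.7%), and of the 4 without it 3 rose, namely CYC1, CYT1 and SDH1. With TMM scaling 15 of the 29 and 3 of the 4 rose. Over the tested transcripts of the mRNA class, 46.9% of 1402 with the motif and 44.0% of 2508 without it rose. No test was made of these shares. The members that were not called were ATP5, ATP19 and ATP20, which hold the motif, and COX9, which does not. COX9 had 227, 237 and 203 RPM at 14 to 16 min, against 196, 188 and 232 at 0 min.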
